A study of Mus musculus and Homo sapiens with 32 samples.

Results

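The input RNA of mouse embryonic stem cells lacking Mettl3 was compared with that of wild-type cells, gene by gene. Each gene was represented by 1 region of the authors' deposited genotype table, the region with the largest sum over the table's 4 columns, and was kept where both input columns summed to at least 5 RPM (reads scaled to the total of the library). This gave 3939 of the 10268 genes listed, and 6329 listed genes fell below that level. The groups were C57BL/6 wild-type and C57BL/6 Mettl3-/- (KO) mouse embryonic stem cells. Each genotype had 2 input libraries, prepared without antibody, beside 2 libraries of m6A-CT, a tagmentation of nuclear RNA paired with cDNA and steered by an anti-m6A antibody (from MilliporeSigma in these cells). Whether the 2 libraries of a group came from separate cultures, which part of Mettl3 was deleted, the number of clones, and whether feeder cells were present are not given in the sources used here.

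N6-methyladenosine (m6A) is a methyl mark placed on adenosines of messenger RNA and long noncoding RNA while they are made in the nucleus. METTL3 is the catalytic subunit of the writer complex and METTL14 its partner. In embryonic stem cells the mark is known for shortening the life of many transcripts, among them those of pluripotency factors, and for its part in leaving the naive state. Input libraries sample RNA in permeable nuclei, so they reflect RNA being made and processed there more than the cytoplasmic pool.

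The table holds 1 pooled input value per genotype, so no replicate error and no test between the genotypes can be given. Each difference is a log2 ratio of Mettl3 KO over wild-type RPM with a 95% exact (Clopper-Pearson) interval that covers counting error only. Copies made by PCR were not marked by molecular identifiers, so reads may not be independent and the interval may be too narrow. Pooled input came to 45090626 wild-type and 51031598 Mettl3 KO reads, and a compared gene had at least 232 input reads over both genotypes, with a median of 544. Regions of Lars2, a mitochondrial leucyl-tRNA synthetase gene, and Rn45s, the ribosomal RNA precursor, took most input reads, and 23.6% of wild-type and 18.99% of Mettl3 KO input reads lay elsewhere. In Lars2 a single stretch of 1163 bases had 309260 RPM in wild-type input. Whether its reads come from Lars2 transcripts was not examined. Leaving the Lars2 and Rn45s regions out of the totals moved every log2 ratio up by 0.31, so results are given on the deposited RPM scale and again on this rescaled one. A gene is called higher or lower where the difference was at least 2-fold. Because the samples are bulk nuclei, fewer cells of a type and less RNA per cell cannot be told apart. The table lists, with few exceptions, regions past a false discovery rate of 0.05 for a difference between genotypes in m6A-CT over input, so genes without such a region were not compared.

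Mettl3 itself had 1.71 RPM in wild-type against 2.47 RPM in Mettl3 KO input in its listed region (mm9, chr14:52919391-52919765), a log2 difference of 0.53 (interval 0.11 to 0.96). The RNA of this stretch was therefore not lower in the library labelled Mettl3 KO, and whether the stretch lies in the deleted part is not known here. Mettl14 had 0.444 RPM in wild-type against 0.196 RPM in Mettl3 KO (log2 -1.18, interval -2.44 to -0.02). Both genes were below the 5 RPM level and are not among the 3939. Markers of naive embryonic stem cells were plentiful, with 34 of 40 listed and summed input of 2786 RPM in wild-type against 2002 RPM in Mettl3 KO. Of 20 fibroblast markers 5 were listed, at a summed 3.19 and 3.02 RPM, and none reached the level for comparison. The other 15 had no listed region and so no input value here, which leaves the amount of fibroblast RNA unknown.

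On the deposited scale 158 genes (4.01%) were at least 2-fold higher in Mettl3 KO input and 309 (7.84%) at least 2-fold lower. After rescaling the counts were 331 (8.4%) higher and 120 (3.05%) lower, so the higher genes made up 33.8% of all calls on the first scale and 73.4% on the second. Rescaling adds the same 0.31 to every log2 ratio, so all 158 higher genes had to stay higher. Of the 309 lower genes 120 stayed past 2-fold. The median log2 difference was -0.19 (quartiles -0.54 and 0.19) on deposited RPM and 0.13 after rescaling. Differences of at least 4-fold were seen in 17 higher and 20 lower genes on the deposited scale, and at least 8-fold in 4 and 5. The counting interval lay wholly beyond 2-fold for 82 of the higher and 146 of the lower genes. No called gene had an interval that included 0, but at 232 or more input reads a 2-fold difference fixes that outcome.

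**Figure D1:**
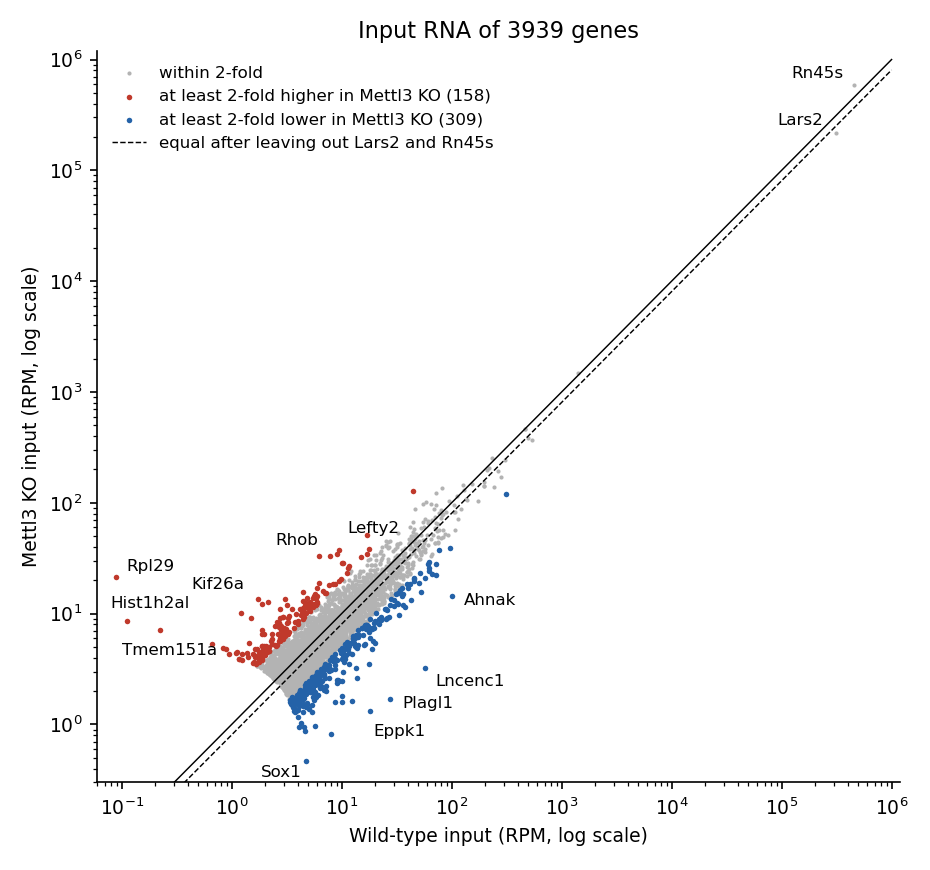
Input RPM of 3939 genes in wild-type (x axis, log scale) and Mettl3 KO cells (y axis, log scale), 1 point a gene. The 158 higher genes are red and the 309 lower genes blue, the solid line marks equal RPM and the dashed line equality after leaving out Lars2 and Rn45s.

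**Figure D2:**
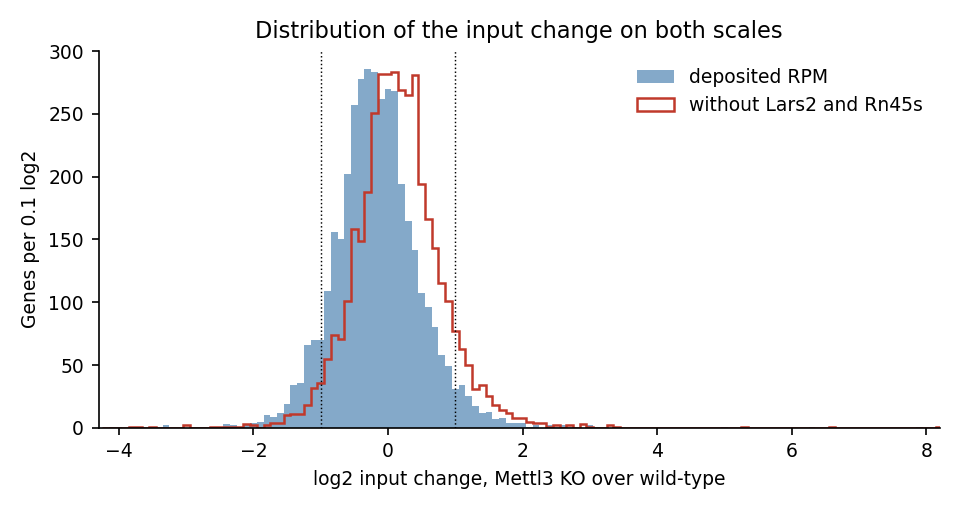
Number of genes per 0.1 of the log2 input difference, as deposited (filled) and without Lars2 and Rn45s (outline), with dotted lines at 2-fold. The outline is the filled distribution moved up by 0.31, and its right tail past 2-fold holds 331 genes against 158.

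Low genes entered through the genotype in which they were high. In 63 of the 158 higher genes the wild-type input was under 2.5 RPM, and in 126 of the 309 lower genes the Mettl3 KO input was under 2.5 RPM, so a gene of low abundance had to differ to be called there. The higher genes had a median wild-type input of 2.85 RPM and the lower genes 7.12 RPM, beside 5.90 RPM over all. Just above the 5 RPM level lay Ncbp1 (log2 -1.08), Chmp2a (0.33) and Neurl1a (0.10), and just below it Nadk2 (-0.03), Cnksr3 (0.38) and Dnmbp (0.80). The 2 ends of the distribution are described first, then genes grouped by function.

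Lncenc1, a long noncoding RNA expressed in embryonic stem cells, was the lowest of all. Its region (mm9, chr13:98264376-98267619, plus strand) had 57.0 RPM in wild-type against 3.25 RPM in Mettl3 KO input, a log2 difference of -4.13 (interval -4.37 to -3.91). The m6A-CT libraries gave 358.5 RPM and 9.78 RPM over the same stretch, so both kinds of library were low in Mettl3 KO. Plagl1, an imprinted zinc finger transcription factor, followed with 27.7 RPM against 1.69 RPM (log2 -4.04), and another region of the gene differed by -3.56. Eppk1, a cytoskeletal linker of the plakin family, had 18.0 RPM against 1.31 RPM (-3.77). Sox1, a transcription factor of early neural cells, had 4.77 RPM against 0.470 RPM (-3.34), and Cmklr1, the receptor for chemerin, 8.03 RPM against 0.823 RPM (-3.29). Peg10, an imprinted gene derived from a retrotransposon, had 12.4 RPM against 1.63 RPM (-2.93).

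Ahnak, a very large scaffold protein, was the most abundant gene at this end. It had 100.4 RPM in wild-type against 14.4 RPM in Mettl3 KO input (mm9, chr19:9076212-9120189, log2 -2.81, interval -2.92 to -2.69), 1154 RPM and 95.3 RPM in m6A-CT, and -2.67 in another region. The adhesion molecule Bcam had 10.1 RPM against 1.59 RPM (-2.67), with -2.69 in another region. Gpa33, a cell surface antigen, had 5.77 RPM against 0.960 RPM (-2.59), with -2.05 in another region. Also among the 12 lowest were the membrane receptor gene Paqr8 (-2.44) and the amino acid transporter gene Slc38a1 (-2.41). All of these genes remained past 2-fold after rescaling, with Slc38a1 at -2.09.

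At the other end the 3 largest ratios rested on very few wild-type reads. Rpl29, a protein of the large ribosomal subunit, had 4 reads (0.0887 RPM) in wild-type against 1082 reads (21.2 RPM) in Mettl3 KO input, a log2 difference of 7.90 (interval 6.54 to 9.78). Its m6A-CT libraries gave 0.382 RPM and 12.4 RPM. Hist1h2al, an H2A histone gene, had 0.111 RPM against 8.60 RPM (6.28), and Tmem151a, a membrane protein gene, 0.222 RPM against 7.15 RPM (5.01). Ribosomal protein and histone genes have near-identical copies, between which the counting could split reads, so the values of Rpl29 and Hist1h2al are uncertain. The Tmem151a ratio rests on 10 wild-type reads, and reads from elsewhere in the genome were not examined for it.

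The other 8 described here had between 0.665 and 6.21 RPM in wild-type. The kinesin-family gene Kif26a had 1.73 RPM in wild-type against 13.6 RPM in Mettl3 KO input (log2 2.97, interval 2.63 to 3.33), and 3.57 in another region. Cdhr1, a cadherin of photoreceptor cells, had 0.665 RPM against 5.31 RPM (3.00), and another region differed by 2.72. Ldlrad3, a receptor-like membrane protein gene, had 1.51 RPM against 9.11 RPM (2.60, and 2.91 in another region). Noct, which encodes nocturnin, was the most abundant of this group with 6.21 RPM against 33.2 RPM (2.42, and 1.83 in another region). Lrrn2, a leucine-rich repeat protein gene, had 1.91 RPM against 12.4 RPM (2.69), with 1.26 in another region. The carbonyl reductase gene Cbr3 (2.56), the ubiquitin ligase gene Mid1 (2.54) and the sulfurtransferase gene Tst (2.43) were also among the 12 highest.

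Of 29 naive pluripotency genes compared, 5 were at least 2-fold lower in Mettl3 KO input and 1 was higher. Over all genes 7.84% were lower and 4.01% higher. Below 0 lay 25 of the 29, beside 62.5% of all genes, and their median was -0.50 beside -0.19 over all. After rescaling 4 were lower and 1 higher, beside 3.05% and 8.4% of all genes. On that scale 20 lay below 0 beside 40.7% of all genes, and the median was -0.18 beside 0.13. Tfcp2l1, a transcription factor of the naive network, had 53.1 RPM in wild-type against 15.7 RPM in Mettl3 KO input (log2 -1.76, interval -1.88 to -1.64). Klf5, a Krüppel-like factor, had 72.3 RPM against 22.4 RPM (-1.69, interval -1.79 to -1.59). Klf4, a factor of the same family, had 57.4 RPM against 21.0 RPM (-1.45, interval -1.56 to -1.35), and another region differed by -1.63. Tet1, which oxidises methylcytosine, had 51.7 RPM against 23.3 RPM (-1.15). It lost its call after rescaling (-0.83) and was at -0.82 in another region.

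Klf2, the other Krüppel-like factor of this network, went the opposite way. It had 44.8 RPM in wild-type against 126.6 RPM in Mettl3 KO input, 2.83-fold higher (log2 interval 1.43 to 1.57), and the log2 difference of another region was 1.496. The core factors differed less than 2-fold: Nanog by -0.50 (122.9 RPM against 87.2 RPM), Sox2 by -0.35 (105.7 RPM against 82.7 RPM), Pou5f1 by -0.35 (45.1 RPM against 35.3 RPM) and Esrrb by -0.14 (104.5 RPM against 94.7 RPM). Esrrb turned to 0.17 after rescaling, while Nanog (-0.18), Sox2 (-0.04) and Pou5f1 (-0.04) stayed just below 0. Nr0b1 (0.40), L1td1 (0.21) and Prdm14 (0.09) were the other members above 0. Within the Krüppel-like factors the differences thus ran from 3.23-fold lower (Klf5) to 2.83-fold higher (Klf2).

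Socs3, a feedback inhibitor of LIF and STAT3 signalling and a known STAT3 target, was among the 5 lower genes. Its input was 26.1 RPM in wild-type against 9.05 RPM in Mettl3 KO (log2 -1.53, interval -1.69 to -1.37), its m6A-CT 63.7 RPM and 9.19 RPM, and another region differed by -1.34. Because Socs3 and Klf4 are both known to answer to STAT3 and were both lower, the 250 bases before their RefSeq starts are shown, on GRCm38.p6 at chr11:117969367-117969616 and chr4:55532476-55532725, both on the minus strand. The letters TTCNNNGAA, a STAT-type palindrome that reads alike on both strands, are in capitals.
Socs3: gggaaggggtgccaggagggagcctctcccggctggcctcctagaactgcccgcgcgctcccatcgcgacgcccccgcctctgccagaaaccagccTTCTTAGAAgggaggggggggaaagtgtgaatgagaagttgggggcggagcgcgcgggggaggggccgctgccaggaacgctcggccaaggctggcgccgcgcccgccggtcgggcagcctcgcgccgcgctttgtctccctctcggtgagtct
Klf4: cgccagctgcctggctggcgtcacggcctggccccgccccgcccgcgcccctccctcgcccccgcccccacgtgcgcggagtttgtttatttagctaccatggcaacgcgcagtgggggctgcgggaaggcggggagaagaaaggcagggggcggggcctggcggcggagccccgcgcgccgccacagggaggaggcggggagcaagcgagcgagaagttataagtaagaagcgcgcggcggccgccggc
The palindrome occurred once before Socs3 and not in the Klf4 window. In windows of 300 bases, running on to 50 bases after the start, it was present in 8.298% of 32851 promoters. Among genes with a promoter in that table it was present in 7.49% of the 3125 compared, 8.33% of 228 lower genes and 8.96% of 134 higher genes, so its share in the called genes was close to that in all.

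Compared genes of primed cells and germ layers went both ways as deposited. Over all 12 listed genes of this group, summed input was 86.6 RPM in wild-type against 156.4 RPM in Mettl3 KO. Of 6 compared, Lefty2, a secreted inhibitor of Nodal signalling, was higher with 9.51 RPM in wild-type against 37.5 RPM in Mettl3 KO input (log2 1.98, interval 1.83 to 2.13), and 2.24 in another region. Sox1 was lower, as given above. Zic2 (0.55), Nes (0.27), Nodal (-0.24) and Dnmt3b (-0.25) were within 2-fold, and the median of the group was 0.01 (0.32 after rescaling). Trophectoderm and primitive endoderm genes (2 compared), germline genes (1) and two-cell-stage genes (1) gave no call on the deposited scale.

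Imprinted genes had the lowest median of the lists, -1.38 on deposited RPM and -1.07 after rescaling (-0.19 and 0.13 over all), over 7 genes. On both scales 4 were lower and 1 higher, beside 7.84% and 4.01% of all genes as deposited. Besides Plagl1 and Peg10, Zdbf2, a paternally expressed zinc finger gene, had 17.6 RPM in wild-type against 3.51 RPM in Mettl3 KO (log2 -2.32, interval -2.57 to -2.09). Zrsr1, an imprinted relative of a splicing factor, had 6.08 RPM against 2.33 RPM (-1.38). Igf2r, a maternally expressed receptor that clears IGF2, was the higher gene with 2.75 RPM against 6.04 RPM (1.13). Peg3 (0.35) and Gnas (0.21) were within 2-fold. The 4 lower genes are paternally expressed in mouse, as is Peg3.

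Of 12 regulators of DNA methylation 3 were lower, beside 7.84% of all genes, and none was higher. Their median was -0.87 beside -0.19 over all. After rescaling 2 were lower, beside 3.05% of all genes, and the median was -0.56 beside 0.13. Tet3 had 3.70 RPM in wild-type against 1.33 RPM in Mettl3 KO input (log2 -1.47), and Tet1 is given above. Tet2 missed the call at -0.90 (33.0 RPM against 17.7 RPM). The glycosylase gene Tdg, whose region the table shares with Gm9855, had 4.08 RPM against 0.941 RPM (-2.12), and another region differed by -1.08. Dnmt1, the maintenance methyltransferase, differed by -0.89, Zfp57, which guards imprints, by -0.96, and Trim28, its corepressor, by -0.86. The methyl-binding NuRD subunit Mbd3 was the member above 0 (0.30).

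Other chromatin groups lay near the median of all genes. Among 17 Polycomb genes 3 were lower, beside 7.84% of all genes. They were Mtf2 (log2 -1.18), Cbx7 (-1.07) and Suz12 (-1.02, with -0.95 in another region), all accessory or core subunits of the repressive complexes. None of the 3 stayed past 2-fold after rescaling, when Epop, an accessory protein of the Suz12 complex, became the one higher gene (0.82 as deposited, 1.14 rescaled). The group median was -0.19 (0.12 rescaled). No gene of 28 in the SWI/SNF, CHD and KMT2 families was called on either scale, and their median was -0.17. Among 112 genes named Zfp, 15 were lower and 2 higher as deposited, beside 7.84% and 4.01% of all genes. After rescaling 9 were lower and 6 higher, beside 3.05% and 8.4%. Their median was -0.19 as deposited. The lowest were Zfp41 (-2.27) and Zfp971 (-2.05), and the higher were Zfp282 (1.33) and Zfp839 (1.14).

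Genes of the m6A machinery were little different in input. Of 14 compared, 1 was lower as deposited and none higher, beside 7.84% and 4.01% of all genes. The median was -0.06 (0.26 after rescaling, with none lower and 1 higher). Igf2bp1, a reader that binds m6A-marked transcripts, had 76.0 RPM in wild-type against 37.4 RPM in Mettl3 KO (log2 -1.02), over a region the table shares with Mir3063, and this call ended after rescaling (-0.71). Ythdf2, the reader that leads marked RNA to decay, had 14.7 RPM against 24.2 RPM (0.72, interval 0.58 to 0.86), and was higher after rescaling (1.03). Rbm15, which guides the writer, differed by 0.60, and the erasers Alkbh5 and Fto by -0.40 and -0.23.

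Genes of glucose uptake, sterol synthesis and stress responses included several lower members and no higher ones as deposited. In glycolysis and hypoxia 3 of 13 were lower, beside 7.84% of all genes. They were the glucose transporters Slc2a3 (71.6 RPM in wild-type, 28.0 RPM in Mettl3 KO, log2 -1.36) and Slc2a1 (16.5 RPM, 7.84 RPM, -1.07) and hexokinase Hk2 (29.7 RPM, 11.8 RPM, -1.34). The group median was -0.19, equal to that of all genes to this precision. After rescaling 2 were lower and 1 higher, beside 3.05% and 8.4% of all genes. Cholesterol synthesis and uptake had 3 of 14 lower, beside 7.84% of all genes, with a median of -0.66 (1 lower and -0.35 rescaled, beside 3.05% and 0.13). These were Cyp51, a sterol demethylase (-1.30, but -0.56 in the region with the most input and -0.87 with regions summed), Insig1, which holds back sterol sensing (-1.11, but -0.57 in another region and -0.82 with regions summed), and the sterol carrier Stard4 (-1.74).

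All 17 entries of the integrated stress and unfolded protein responses (Pdia4 has 2 identifiers, as do Ddx5 and Hspg2 in lists below) lay below 0 on the deposited scale and 12 of 17 after rescaling, beside 2463 and 1604 of the 3939 genes. Xbp1, a transcription factor of the unfolded protein response, had 9.18 RPM in wild-type against 2.53 RPM in Mettl3 KO (log2 -1.86). Ddit4, an inhibitor of mTORC1 signalling, had 17.5 RPM against 7.66 RPM (-1.19), and its call ended after rescaling (-0.88). Atf4, the central factor of the integrated stress response, differed by -0.47, which was also the median of the list.

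The p53 target list had 3 of 12 lower, beside 7.84% of all genes, none higher, and a median of -0.83 beside -0.19. After rescaling 2 were lower, beside 3.05%, and the median was -0.52 beside 0.13. Zmat3, an RNA-binding p53 target, had 36.02 RPM in wild-type against 12.05 RPM in Mettl3 KO (log2 -1.58), Btg2, an antiproliferative gene, 7.14 RPM against 2.23 RPM (-1.68), and Trp53inp1 22.7 RPM against 9.35 RPM (-1.28). Mdm2, the ubiquitin ligase of p53, differed by -0.93, Trp53 by -0.92 and the cell cycle inhibitor Cdkn1a by -0.24. Btg2 also belongs to the immediate early genes, of which 2 of 10 were lower, beside 7.84% of all genes. The other was Spry2, a feedback inhibitor of receptor tyrosine kinase signalling (-1.21, and -0.90 after rescaling). That left 1 of 10 lower after rescaling, beside 3.05%. No heat shock gene of 9 was called on either scale.

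Some compared genes of RNA-binding proteins were called lower, and no compared ribosomal, respiratory chain or histone gene was. Of 34 splicing and RNA-binding genes 6 were lower, none was higher and the median was -0.47, beside 7.84% lower and -0.19 over all genes (2 lower and -0.15 after rescaling, beside 3.05% and 0.13). Pabpc1, the cytoplasmic poly(A)-binding protein, had 65.8 RPM in wild-type against 22.8 RPM in Mettl3 KO (log2 -1.53), and Hnrnpul2 5.50 RPM against 2.02 RPM (-1.45). Among 30 cell cycle genes Top2a (-1.16) and Mcm4 (-1.09, but -0.58 in another region) were lower as deposited and no gene after rescaling. Over all genes 7.84% and 3.05% were lower, and the cell cycle median was -0.33. By contrast, medians lay above 0 for 18 cytosolic ribosomal protein genes (0.12, 0.44 rescaled), 17 respiratory chain genes (0.20, 0.51) and 14 replication-dependent histone genes (0.21, 0.52). Summed over all 33 listed ribosomal protein genes, input was 1188 RPM in wild-type against 980 RPM in Mettl3 KO. For 48 respiratory chain genes it was 558 RPM against 542 RPM, and for 19 histone genes 165 RPM against 228 RPM. In these 3 groups Rpl29 and Rplp0 (17.6 RPM against 38.0 RPM, 1.11) were the called genes as deposited. After rescaling Rplp1 (1.03) and Hist1h1d (1.08) were also higher. Hist1h2al (6.28), the histone gene given above, is not on the histone list and is not counted here.

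Extracellular matrix genes had the highest median of the lists with at least 5 genes, 0.23 (0.54 after rescaling), over 11 genes. Serpinh1, the collagen chaperone, was the 1 higher gene as deposited, with 2.90 RPM in wild-type against 9.31 RPM in Mettl3 KO (log2 1.68, interval 1.40 to 1.97) and 1.68 in another region. The collagen hydroxylase gene Plod1 differed by 0.94 and the laminin gene Lama5 by 0.77. Both were past 2-fold after rescaling in the region used, while other regions differed by 0.34 (Plod1) and 0.41 (Lama5) as deposited. Lamc1, another laminin, differed by -0.72. Of long noncoding RNAs on the list, Tug1 was lower (4.48 RPM against 1.47 RPM, -1.61), while Neat1 (-0.27) and Malat1 (-0.09) were within 2-fold. Among the 20 lists with at least 5 compared genes, 12 had a median below that of all genes.

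**Figure D3:**
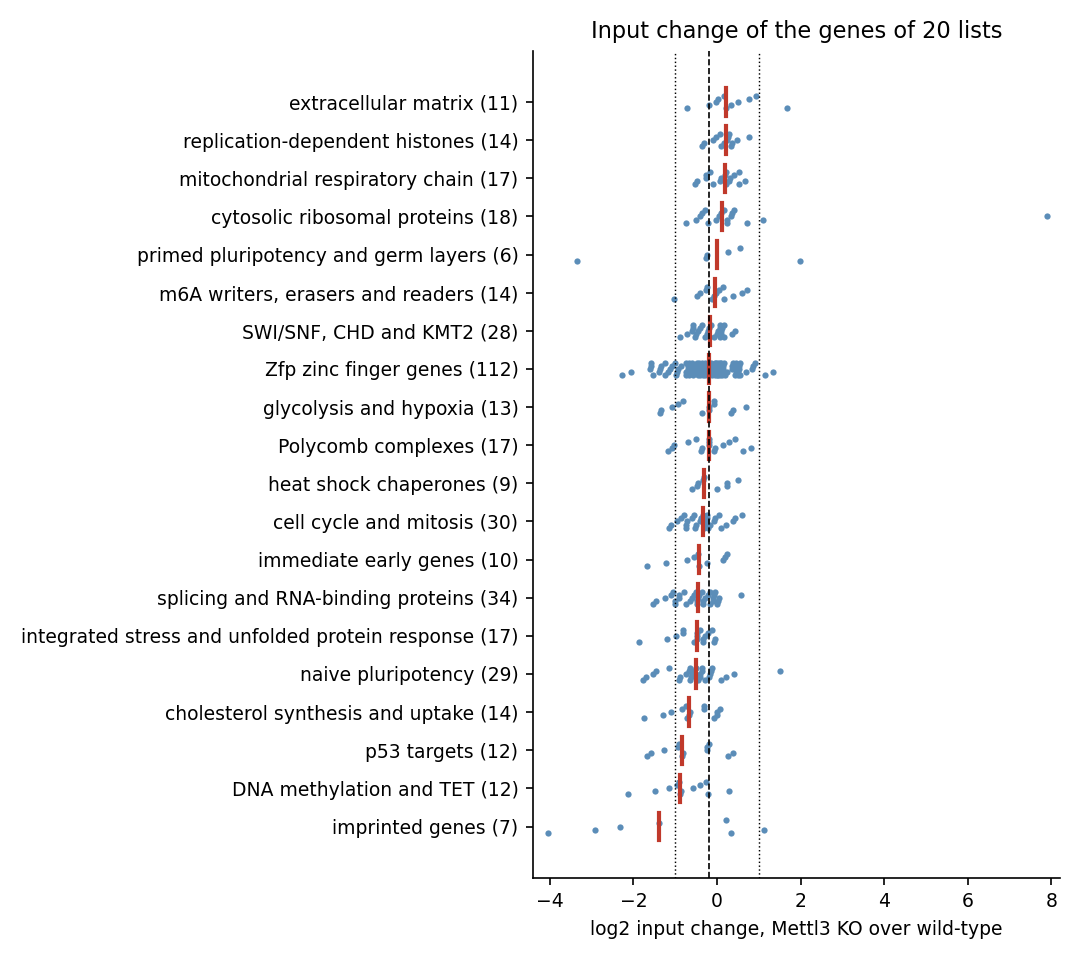
Log2 input difference of each compared gene (points) in the 20 lists with at least 5 genes, with the number of genes in brackets and the list median as a red bar. The dashed line is the median of all genes (-0.19) and the dotted lines mark 2-fold; imprinted genes have the lowest median (-1.38) and extracellular matrix genes the highest (0.23).

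A second, separate region was available for many genes and gave a repeat within the same libraries. In 2555 genes another listed region that shared no base with the first had at least 2 RPM of input, and the log2 differences of the pair had a Pearson r of 0.83 and a Spearman rho of 0.81. This is across genes, which are not independent replicates, and both values come from the same pooled libraries. The median absolute gap between the regions was 0.19. Of the lower genes 190 of 196 with such a region had the same sign there and 111 were again at least 2-fold lower, beside 7.28% of all such regions. Of the higher genes 83 of 84 had the same sign and 61 were again at least 2-fold higher, beside 3.91%. The differences therefore mostly ran along a gene, with exceptions such as Mapt, a microtubule-associated protein gene, at -0.14 in 1 region and -1.35 in the other.

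**Figure D4:**
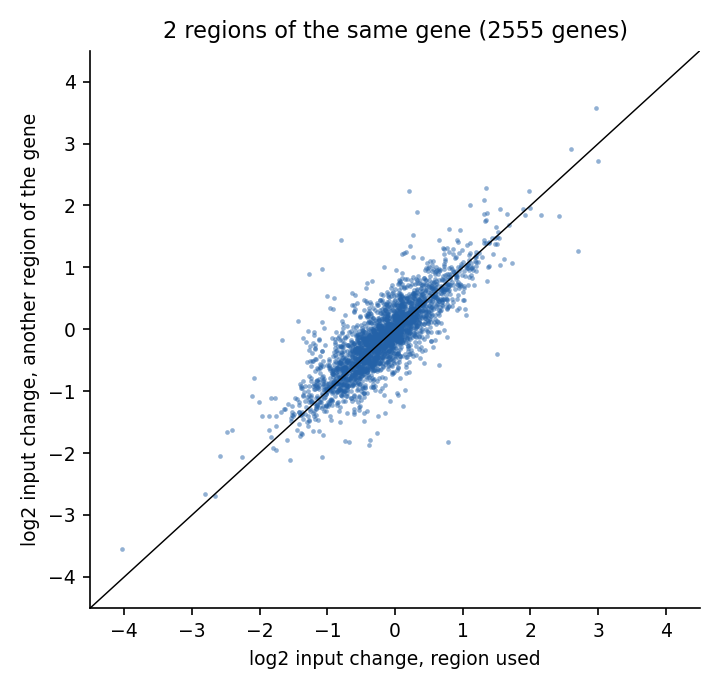
Log2 input difference in the region used (x axis) and in another region of the same gene (y axis) for 2555 genes, with the line of equality. The points follow the line (Pearson r 0.83), and most of the called genes keep their sign in the other region.

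The m6A-CT libraries of the same cells, which also draw on RNA amount, moved with the input. Across the 3939 genes the log2 difference in m6A-CT and in input had a Pearson r of 0.56 and a Spearman rho of 0.46, as a description over genes from libraries of the same cells. On deposited RPM the median m6A-CT difference was -1.55 in the lower genes, 0.22 in the higher genes and -0.68 over all. In 283 of 309 lower genes (91.6%) m6A-CT was below 0, as in 84.7% of all genes. In 96 of 158 higher genes (60.8%) it was above 0, as in 15.3% of all genes. Leaving out Lars2 and Rn45s moved the m6A-CT differences up by 0.48, to medians of -1.07, 0.70 and -0.20. On that scale 239 of the lower genes (77.3%) were below 0, beside 61.5% of all, and 134 of the higher genes (84.8%) above 0, beside 38.5%.

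The relation to m6A in wild-type cells depended on how m6A was measured. The direct measure, wild-type m6A-CT over input in the same region, gave no ordered relation. Its denominator is the wild-type input, which is also the denominator of the input difference. The median log2 input difference was -0.20 in 39 genes with a ratio under 0.5, -0.31 in 274 with 0.5 to 1, -0.15 in 788 with 1 to 2, -0.13 in 1374 with 2 to 4 and -0.25 in 1464 with 4 and over. Spearman rho across the 3939 genes was -0.05. Lower genes had a median ratio of 3.52 and higher genes 3.05, beside 3.16 over all. In Mettl3 KO the medians were 2.95, 1.34 and 2.09, but there the denominator is the Mettl3 KO input itself.

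With the ratio taken from another region of the gene, which does not share reads with the first, low ratios went with lower input. The denominator still comes from the same pooled wild-type input library, so the shared denominator is not fully removed. In 2554 genes the median input difference was -0.39 below a ratio of 0.5 (22 genes), -0.37 from 0.5 to 1, -0.24 from 1 to 2, -0.14 from 2 to 4 and -0.15 at 4 and over, with a Spearman rho of 0.12. Genes also differed by the sign of the authors' deposited log2 fold change. That value compares m6A-CT over input between genotypes, so both input columns enter it. Lower Mettl3 KO input by itself moves it up, so the split below is not independent of the input difference. Among genes with a ratio under 1, the 134 whose deposited log2 fold change was above 0 had a median input difference of -0.60, and the 179 with it below 0 had -0.02. At a ratio of 4 and over 1460 of 1464 genes had it below 0, with a median of -0.25. Over all genes 257 had it above 0, with a median of -0.78, 80 of them lower and 2 higher.

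The authors' MeTPeak calls gave a graded relation in the other direction. MeTPeak is a caller of enriched exonic stretches, and each gene was given the highest deposited fold among its wild-type peaks. The median log2 input difference was -0.03 in 708 genes without a peak, -0.11 under a fold of 5 (677 genes), -0.17 from 5 to 10 (1213), -0.29 from 10 to 20 (848) and -0.36 at 20 and over (493). In the last class 14.8% of genes were lower and 1.01% higher, against 5.79% and 6.21% without a peak. Genes in the last class had more input and longer listed regions (medians of 18.2 RPM and 3447 bases, beside 8.80 RPM and 804 bases without a peak). Within each of 5 equal classes of input level, summed over both genotypes, the median was lower at a fold of 20 and over than without a peak. These classes do not hold wild-type input fixed, and the peaks were called in wild-type cells. A dependence of the peak calls on wild-type input is therefore not removed. Within classes of region length the same order held in 4 of 5, and in the shortest the values were -0.08 (14 genes) and -0.16 (299 genes). The spread within each class, with quartiles of -0.75 and 0.00 at 20 and over, was larger than the step between classes.

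Peaks of other cells, which share no library with the difference, gave the same order as MeTPeak. In E14, another line of mouse embryonic stem cells profiled with an antibody from Synaptic Systems, the deposited MACS2 peaks overlapped the listed exons of 1239 genes. Their median log2 input difference was -0.31, against -0.13 in 2700 genes without a peak. With a peak 10.3% of genes were lower and 1.94% higher, and without one 6.70% and 4.96%. An E14 peak was present in 41.4% of the lower genes, 15.2% of the higher genes and 31.5% of all. Genes with a peak again had more input (median 14.8 RPM beside 10.2 RPM) and longer regions (2588 beside 1475 bases), and the part of these in the difference was not tested.

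**Figure D5:**
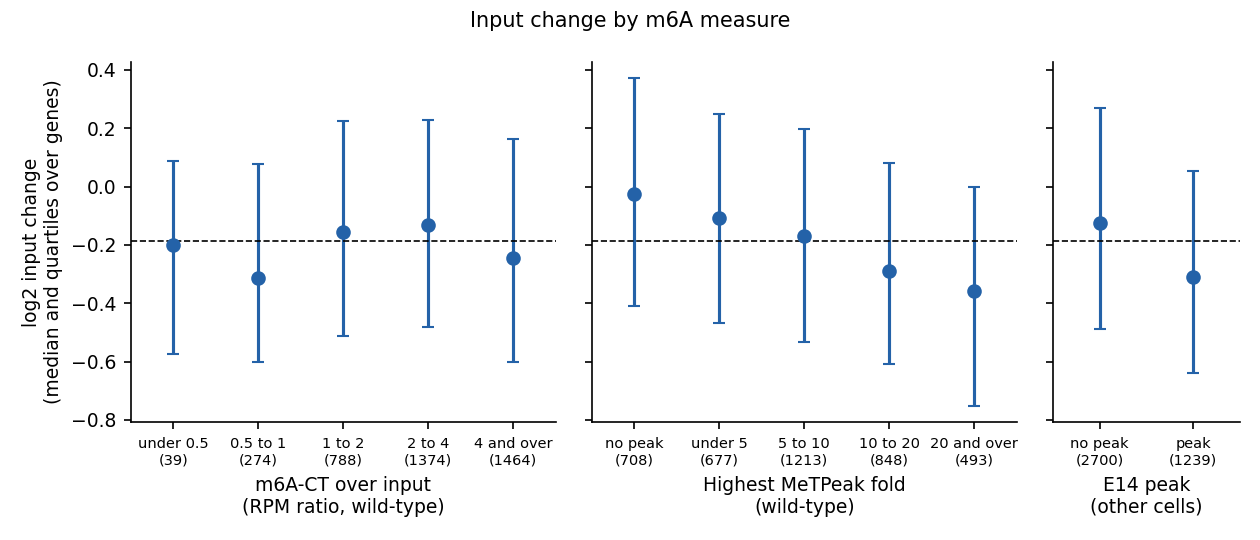
Median (points) and quartiles (bars) over genes of the log2 input difference by wild-type m6A-CT over input, by highest wild-type MeTPeak fold and by presence of an E14 peak, with the number of genes in brackets. The dashed line is the median of all genes (-0.19); the medians step down from -0.03 to -0.36 with the MeTPeak fold and show no such order with the RPM ratio.

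Medians also differed with region length and chromosome. By 5 equal classes of listed length the medians were -0.25, -0.03, -0.13, -0.22 and -0.31 from shortest to longest, and the second class held 57 higher and 30 lower genes while the longest held 21 and 85. Lower genes had a median region of 2378 bases and higher genes 1650, beside 1850 over all. Medians by chromosome ranged from -0.30 to -0.08.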

How the data were processed

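Trim Galore, STAR 2.7.2 and, for the E14 peaks, MACS2 were used per the submitters' processing notes; the sample labels name exomePeak2 and MeTPeak. The authors deposited RPM per region (4 pooled columns), a log2 fold change with a p-value and FDR, and MeTPeak fold and MACS2 peak lists on mm9. All deposited RPM values were whole reads to within 0.01 reads. Genes took the region with the largest RPM sum, at least 5 RPM of input, and a call at 2-fold, with no pseudocount; ratios and counting intervals were computed with Python 3.11.15, pandas 2.3.3 and scipy 1.17.1 and tested on simulated data. 74 of the 3939 identifiers hold several symbols. E14 peaks counted at 1 bp of overlap. Named are the 12 highest and 12 lowest genes, up to 4 genes with the largest differences in each of 28 lists, Mettl3, Mettl14, Nanog, Pou5f1, Sox2, Klf4, Esrrb, Lars2, Rn45s, the 6 highest per kb and 3 genes on either side of the threshold; further list members were named after their values were seen, and some genes under this rule are not reported here. The members and lists were chosen with earlier results of these data known. Alternatives changed the totals, centring, region, threshold, pseudocount, fold and m6A measure. Values of single libraries were not analysed here.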

Additional observations from a re-analysis of the deposited data

How the results depend on the processing

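The counts of calls depended on scale and level. With totals without Lars2 and Rn45s, 331 genes were higher and 120 lower, and the median turned from -0.19 to 0.13 because every ratio moved by the same 0.31. Centring on the median gave 237 higher and 181 lower genes, so that more genes were higher than lower. At a level of at least 2 RPM 330 genes were higher and 524 lower, at 20 RPM 28 and 81, and at 1.5-fold 422 and 894. Summing all regions of a gene (226 higher, 335 lower), the region with the most input (168, 293) and a pseudocount of 0.5 RPM (120, 239) kept both counts within 1.5 times the reported ones.

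The median log2 difference between genes with a wild-type ratio of 4 and over and those under 1 was 0.06. It was 0.25 with summed regions, 0.19 at 2 RPM and 0.22 with the ratio of another region. It was reversed at 20 RPM (-0.011), for E14 peaks against none (-0.18) and for a MeTPeak fold of 20 and over against no peak (-0.33). It was also reversed (-0.20) when each gene took its region from those with a deposited log2 fold change below 0. This last setting was chosen after seeing the data and selects on a value that both inputs enter. The cause of the reversals was not tested. No named gene past 2-fold changed sign under the 5 alternatives run on single genes. Rescaling and centring move all ratios by less than 2-fold, and a pseudocount cannot turn a sign, so these could not have changed it. Only summing regions and taking the region with the most input could. The number of lists with a median below that of all genes ranged from 9 to 16.

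No paired analysis was possible because the pooled columns carry no replicate, and for the same reason no replicate could be left out. Depth limits the low genes: the median half-width of the counting interval was 0.25, and the widest 1.62.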

Other observations

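The genes named here were past 2-fold and chosen after their values were seen. Rhob, a small GTPase, had 7.76 RPM in wild-type against 33.4 RPM in Mettl3 KO input (log2 2.10), and Itgb5, an integrin subunit, 2.77 RPM and 11.0 RPM (1.99, with 1.96 in another region). Tk1, a thymidine kinase, had 3.17 RPM and 11.9 RPM (1.91, and 1.85 in another region). On the low side Olig2, a transcription factor of the neural lineage, had 20.0 RPM and 5.45 RPM (-1.88), the receptor tyrosine kinase gene Kit 25.3 RPM and 8.94 RPM (-1.50, and -1.37 in another region), and Txnip, a regulator of glucose uptake, 22.0 RPM and 8.07 RPM (-1.44, and -1.13 in another region). Zfp608, a member of the Zfp list and the most abundant gene past 2-fold, had 310.8 RPM and 119.5 RPM (-1.38).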
